A study of Mus musculus with 23 samples.

Results

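Gene expression of leukemic marrow was set against that of preleukemic B cell precursors in mice that carry 1 working copy of Pax5. Samples were chosen by their titles: 10 Pax5+/- leukemias (samples 1 to 10) and 7 Pax5+/- preleukemic pro-B and pre-B cell samples (11 to 13 and 21 to 24), 17 of the 23 samples of the series. All mice, controls included, had received 1 irradiation of 2 Gy at 2 months of age. The preleukemic cells were collected 3 weeks after the dose, and the age of the mice with leukemia is not stated. The remaining samples were 3 wild-type (WT) leukemias and 3 WT preleukemic samples, treated alike. Of 19938 genes on the array with 1 symbol, 15542 were tested.

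PAX5 is a transcription factor that commits lymphoid progenitors to the B cell lineage, by switching on B cell genes and silencing genes of other lineages. In the marrow, pro-B cells rearrange the immunoglobulin heavy chain and divide in response to interleukin 7. Pre-B cells carry a pre-B cell receptor, which ends that division through the kinase SYK, its adaptor BLNK, IKAROS family factors and FOXO1. Loss of 1 PAX5 copy is common in B cell precursor acute lymphoblastic leukemia.

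The labels limit what the comparison holds. Titles call the leukemias pro-B cells while descriptions call them leukemic marrow, and a sort, the sex and the strain are not stated. Stage cannot be told apart from the step of B cell development, the age of the mice, the time since irradiation or a sort. The mouse numbers of the 17 Pax5+/- samples all differ. Their letters differed between the groups: U for leukemias 1 to 5, Y for 6 to 9 and L for 10, against I for preleukemic samples 11 to 13 and 24 and L for 21 to 23. In bulk samples, fewer cells of a type and less RNA per cell cannot be told apart.

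Values are log2 levels from 1-colour arrays, and a log2 difference of 1 is 2-fold. Array medians lay between 6.06 and 6.2, so levels near 6 are close to background. Precision is limited by how many arrays each group has. Adjusted p-values are from limma with Benjamini-Hochberg adjustment over all 15542 genes, with a threshold of 0.05, and standard errors (SE) are on the log2 scale. Folds of Ikzf3, Cd55, Flt3, Il18rap, Cxcr5, Fosb, Spred1, Pik3cb, Mir18, Mir19a, Kdm5b, Edaradd, Kcnma1 and Cdh17 are not exact, since the mean of their lower group was not above the array medians. Median centring and quantile normalization each moved the median difference of all genes by less than 0.1, by -0.068 and -0.063.

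The groups differed widely. Of 15542 genes, 4357 (28.0%) were higher and 5677 (36.5%) lower in leukemia, and the median difference over all genes was -0.053. Over 2-fold, 1068 genes (6.87%) were higher and 474 (3.05%) lower. In 1815 genes (11.7%) every leukemia lay above every preleukemic sample, and in 1671 (10.8%) every leukemia lay below. Shares of a gene list are set against these percentages below, and a share near them says nothing about the list. Calls higher and lower numbered 3724 and 7065 with median centring, 4109 and 3684 with a filter at the 50th percentile and 4407 and 7959 with no filter, so the split of small differences depends on these choices.

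Leukemias varied more among themselves than preleukemic samples did. The median SD over genes was 0.173 in the leukemias and 0.12 in the preleukemic samples, and the leukemic SD was larger in 10452 genes. Among the 1542 genes called over 2-fold, leukemia 7 lay inside the preleukemic range for 124, leukemia 9 for 64 and leukemia 2 for 53. The other leukemias did so for 19 to 46. With letter as a fixed term the stage difference rests on letter L alone, leukemia 10 against preleukemic samples 21 to 23. That fit called 3897 genes, and with 1 leukemia a call kept or lost in it says little.

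Markers of cells other than B cells moved with the stage. Their first principal component over 125 genes ran from -2.21 to 14.66 in the leukemias and from -12.16 to -9.42 in the preleukemic samples, so it did not overlap between the groups. Some named genes, such as Klrd1, Sparc and Flt3, are among the 125, so adjusting them by this component is partly circular. With this component as a covariate, 2120 of 15542 genes were higher and 1424 lower, so calls fell over all genes. List counts with it are therefore not comparable with the shares of 28.0% and 36.5%. Since the component separates the stages, the covariate takes up part of the stage difference. Neutrophil markers went from 11 of 16 higher and none lower to none higher and 14 lower with it. Calls of named genes that ended with this covariate, called the marker covariate here, or with letter as a fixed term are given beside the results. A call lost or kept with the marker covariate does not tell whether other cells made the difference. The part of other cells in the results was not tested.

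The 12 largest falls were taken from genes whose group means both exceeded the highest array median, although single leukemias could lie below it. Several encode proteins of B cells. Fcrla, an Fc receptor-like protein inside B cells, ran from 5.9 to 7.28 (median 6.38) in the leukemias and from 11.66 to 12.21 (median 11.95) in the preleukemic samples. It fell 45.1-fold (SE 0.15 in log2, adjusted p = 8.04e-17), the largest fall of the 12. Carboxypeptidase M, Cpm, a membrane enzyme that trims basic residues from peptides, ran from 5.41 to 9.12 (median 6.37) in the leukemias and from 11.34 to 11.67 (median 11.63) in the preleukemic samples. It fell 32.2-fold (SE 0.36 in log2, adjusted p = 2.46e-10). Leukemia 7 held the highest Cpm level of the leukemias and was still below every preleukemic sample.

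Other genes of this group are receptors and signalling proteins. Atp1b1, a subunit of the sodium pump, fell 21.0-fold (SE 0.29 in log2, adjusted p = 6.65e-11). Cd2, an adhesion receptor of lymphoid cells, ran from 5.77 to 8.3 (median 6.09) in the leukemias, with leukemia 2 highest, against 9.76 to 10.67 in the preleukemic samples. Cd72, an inhibitory coreceptor of B cells, varied most of the 12 among leukemias, from 5.87 to 10.78 (median 8.73), and all preleukemic samples lay from 11.74 to 12.32. Its fall was 13.4-fold (SE 0.62 in log2, adjusted p = 3.02e-05). Fcmr, the receptor for the constant part of IgM, fell 12.3-fold, and Siglecg, a sialic acid-binding inhibitor of B cell receptor signals, 11.8-fold.

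The pseudokinase gene Trib2 fell 13.5-fold, the AMPK-related kinase gene Nuak1 13.2-fold and the DNA repair glycosylase gene Neil1 12.1-fold. The metalloreductase gene Steap4 fell 12.0-fold and the interferon-inducible gene Ifi209 11.9-fold. For each of these 12 genes every leukemia was below every preleukemic sample, which the rule for naming them required. Each kept its call with the marker covariate.

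The 12 largest rises, taken by the same rule, held growth genes and genes of myeloid, platelet and stromal cells. Requiring both means above the array medians and no overlap left out larger rises, such as Kcnma1 at 5.32 and Flt3 at 4.97 in log2. It also left out the fall of Ikzf3, at -5.01. Ccnd1, cyclin D1, which drives cells from G1 toward DNA synthesis, ran from 8.03 to 12.49 (median 10.92) in the leukemias and from 6.81 to 7.24 (median 7.06) in the preleukemic samples. It rose 14.8-fold (SE 0.48 in log2, adjusted p = 6.23e-07), and leukemia 4 was lowest of the leukemias at 8.03. Myc, a transcription factor that raises growth and biosynthesis, ran from 9.07 to 11.95 (median 11.43) in the leukemias and from 7.19 to 8.03 (median 7.67) in the preleukemic samples. It rose 12.3-fold (SE 0.34 in log2, adjusted p = 1.31e-08), and leukemia 3 was lowest at 9.07, above every preleukemic sample.

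Ifitm3 and Ifitm1, interferon-induced membrane proteins that restrict virus entry, rose 18.3-fold and 12.1-fold. Sparc, a matrix protein of stroma, ran from 9.6 to 11.15 (median 10.10) in the leukemias and from 6.08 to 6.48 (median 6.29) in the preleukemic samples and rose 16-fold (SE 0.20 in log2, adjusted p = 9.91e-13). Rgs18, a brake on G protein signals found in platelets and megakaryocytes, rose 12.9-fold. Clec12a, an inhibitory lectin of myeloid cells, rose 11.9-fold, and Fcer1g, the shared signalling chain of Fc receptors, 11.0-fold. Klrd1, CD94 of NK cell receptors, rose 9.35-fold. Adgrg3, an adhesion G protein-coupled receptor, rose 14.9-fold, the secreted protein gene Dkkl1 10.4-fold and Lgals3bp, a secreted glycoprotein, 10.2-fold. Calls of Ccnd1, Rgs18, Ifitm1, Clec12a, Fcer1g and Klrd1 ended with the marker covariate.

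**Figure D1:**
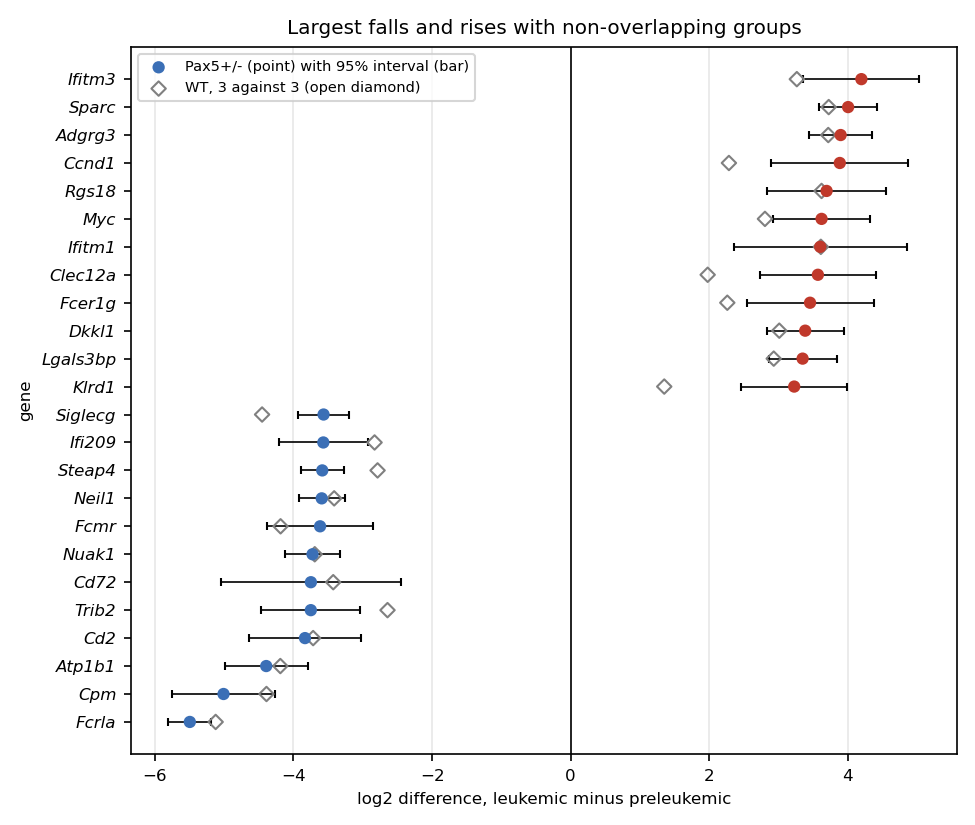
Log2 difference, leukemic minus preleukemic, of the 12 largest falls and 12 largest rises. They were taken from genes without overlap between the groups and with both group means above the array medians. Each point is the Pax5+/- difference (10 against 7 samples) with its 95% interval as a bar, and open diamonds are the WT difference (3 against 3). Differences ran from -5.50 for Fcrla to 4.19 for Ifitm3, and the WT difference had the same sign in all 24 genes. WT preleukemic sample 20, which enters the diamonds, lay inside the Pax5+/- leukemic range of the marker component.

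Transcription factors of B cells mostly fell. Of 33 tested, 23 (69.7%, against 36.5% of all genes) were lower and 6 (18.2%, against 28.0%) higher, with a median difference of -0.885 against -0.053 for all genes. Pax5 ran from 6.85 to 11.42 (median 8.33) in the leukemias and from 11.31 to 11.53 (median 11.36) in the preleukemic samples. In 9 of 10 leukemias it was below every preleukemic sample, and leukemia 7, at 11.42, lay inside their range. The mean difference was -2.86 (exact two-sided permutation p = 0.000411, n = 10 and 7). Without any 1 sample the difference stayed between -3.19 and -2.68. Whether the probes lie in the part of Pax5 removed from the mutant allele is not stated, so this level is no check of the genotype. The limma call of Pax5 ended with the marker covariate.

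Factors that act beside or below the pre-B cell receptor fell in every leukemia. Ikzf3, which encodes AIOLOS and helps end pre-B cell division, ran from 5.62 to 7.6 (median 5.87) in the leukemias and from 11.01 to 11.33 (median 11.27) in the preleukemic samples. It fell 32.3-fold (SE 0.28 in log2, adjusted p = 6.95e-12), to levels at or near background in most leukemias. Its relative Ikzf1, which encodes IKAROS, ran from 10.43 to 10.89 (median 10.75) in the leukemias and from 11.11 to 11.46 (median 11.30) in the preleukemic samples and fell only 1.51-fold (SE 0.07 in log2, adjusted p = 3.22e-07). Irf4, which supports light chain rearrangement, ran from 7.46 to 9.46 (median 8.5) in the leukemias and fell 7.51-fold (SE 0.24 in log2, adjusted p = 2.57e-09). Bach2, which curbs MYC at the pre-B cell checkpoint, ran from 8.16 to 9.25 (median 8.73) against 11.44 to 11.82 (median 11.68) and fell 7.50-fold (SE 0.16 in log2, adjusted p = 5.16e-12). Spib, an ETS factor of B cells, fell 5.33-fold (SE 0.16 in log2, adjusted p = 1.04e-10).

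Factors of B cell specification fell too. Tcf3, which encodes the E2A proteins, ran from 9.01 to 10.54 (median 9.49) in the leukemias and from 11.22 to 11.5 (median 11.37) in the preleukemic samples and fell 3.63-fold (SE 0.14 in log2, adjusted p = 5.28e-10). Ebf1, which acts with E2A and PAX5, ran from 10.22 to 11.52 (median 10.89) in the leukemias and from 12.25 to 12.48 (median 12.36) in the preleukemic samples and fell 2.82-fold (SE 0.16 in log2, adjusted p = 9.76e-08). Both groups stayed well above background for these genes. Id3, an inhibitor of E proteins, fell 3.36-fold, and Klf2, a factor of resting lymphocytes, 3.88-fold. Myb fell 1.85-fold and Ets1 2.28-fold, and leukemia 7 held the highest Ets1 level at 10.6, inside the preleukemic range. The calls of Myb and Ets1 ended with the marker covariate and with letter as a fixed term.

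The 6 factors that rose included Etv6, an ETS family repressor, which ran from 9.73 to 10.65 (median 10.32) in the leukemias and from 8.84 to 9.25 (median 8.98) in the preleukemic samples and rose 2.42-fold (SE 0.11 in log2, adjusted p = 3.52e-09). Bcl11a, a factor of early lymphoid cells, rose 1.75-fold (adjusted p = 0.000655). Id2, an inhibitor of E proteins that rises in innate and myeloid cells, ran from 8.51 to 12.02 (median 9.90) in the leukemias and from 6.85 to 9.48 (median 9.27) in the preleukemic samples. Its groups overlapped, with 6 of 10 leukemias above every preleukemic sample, and it rose 2.43-fold (adjusted p = 0.0157). The call of Id2 ended with the marker covariate, with letter as a fixed term and with preleukemic samples 11 to 13 or 21 to 24 alone. That of Bcl11a ended with the marker covariate.

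**Figure D2:**
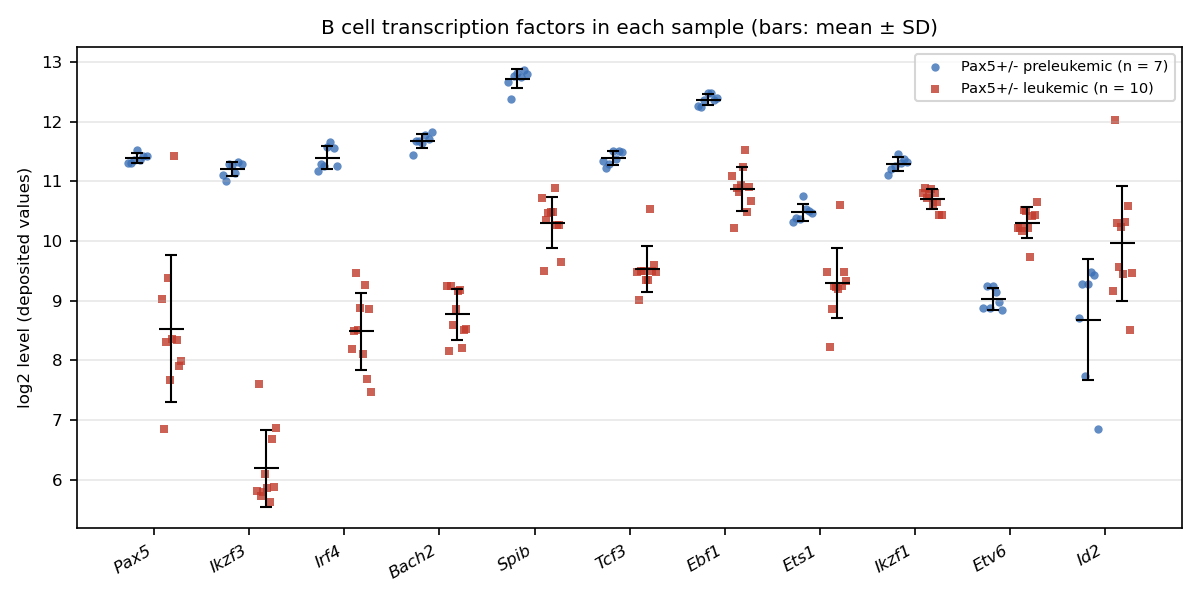
Deposited log2 level of 11 B cell transcription factors in each of 7 Pax5+/- preleukemic samples (circles) and 10 Pax5+/- leukemias (squares), with the mean ± SD of each group as black bars. Leukemia 7 lies at 11.42 for Pax5, among the preleukemic samples, while its Ikzf3 level of 5.62 is the lowest of all leukemias.

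Surface proteins of B cells fell in part. Of 32 tested, 18 (56.2%, against 36.5%) were lower and 4 (12.5%, against 28.0%) higher, and 13 fell over 2-fold. The surrogate light chain partner Vpreb3 ran from 8.33 to 12.13 (median 11.28) in the leukemias and from 12.99 to 13.23 (median 13.06) in the preleukemic samples and fell 4.53-fold (SE 0.46 in log2, adjusted p = 0.000392). Cd79a and Cd79b, the signalling chains of the B cell receptor, fell 2.70-fold (adjusted p = 1.14e-06) and 1.79-fold (adjusted p = 6.22e-07). Cd55, a complement regulator, fell 6.13-fold (adjusted p = 9.44e-10), to levels at or below the array medians in most leukemias. Cd81, a tetraspanin, ran from 11.52 to 12.01 (median 11.80) in the leukemias and from 10.59 to 10.87 (median 10.78) in the preleukemic samples and rose 2.01-fold (adjusted p = 5.76e-11), and Cd9, another tetraspanin, rose 2.27-fold (adjusted p = 1.98e-05). Calls of Vpreb3, Cd79b and Cd9 ended with the marker covariate, and that of Cd9 also with letter as a fixed term.

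Genes of signalling below the antigen receptor moved in both directions. Of 30 genes, 15 (50%, against 36.5%) were lower and 10 (33.3%, against 28.0%) higher. Syk, the kinase that the receptor activates first, ran from 9.53 to 10.49 (median 9.80) in the leukemias and from 11.6 to 11.88 (median 11.79) in the preleukemic samples and fell 3.49-fold (SE 0.13 in log2, adjusted p = 3.29e-10). Pik3ap1, the BCAP adaptor that links it to PI3K, fell 3.22-fold (SE 0.12 in log2, adjusted p = 1.58e-10). The RAS activators moved apart. Rasgrp1 ran from 6.44 to 9.54 (median 6.91) in the leukemias and from 10.25 to 11.08 (median 10.80) in the preleukemic samples and fell 11.3-fold (SE 0.38 in log2, adjusted p = 1e-07). Rasgrp3 ran from 5.61 to 11.36 (median 10.02) in the leukemias and from 6.18 to 6.92 (median 6.30) in the preleukemic samples and rose 7.97-fold (SE 0.65 in log2, adjusted p = 0.000498), with leukemia 7, at 5.61, below every preleukemic sample. Lat2, the adaptor also called NTAL, rose 6.15-fold (SE 0.18 in log2, adjusted p = 1.03e-10) and the kinase gene Fyn 2.65-fold (SE 0.12 in log2, adjusted p = 2.8e-09), each in all 10 leukemias. The call of Rasgrp3 ended with the marker covariate.

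Genes of the RAS-MAPK pathway and its feedback moved in both directions, in shares not far from those of all genes. Of 40 tested, 18 (45.0%, against 36.5%) were lower and 9 (22.5%, against 28.0%) higher. The AP-1 subunit Fosb ran from 5.99 to 6.34 (median 6.19) in the leukemias and from 6.82 to 10.78 (median 9.63) in the preleukemic samples, so preleukemic samples spread widely and the leukemias were all near background. It fell 7.46-fold (SE 0.51 in log2, adjusted p = 5.77e-05). Jund, another AP-1 subunit, ran from 7.99 to 8.85 (median 8.31) in the leukemias and from 10.55 to 11.32 (median 11.04) in the preleukemic samples and fell 6.23-fold (SE 0.16 in log2, adjusted p = 1.59e-11). Dusp5, a phosphatase of nuclear ERK, fell 3.79-fold (adjusted p = 7.25e-06). Spred1, an inhibitor of RAS signalling, ran from 6.02 to 9.54 (median 8.94) in the leukemias and from 5.85 to 6.3 (median 6.06) in the preleukemic samples and rose 5.64-fold (SE 0.39 in log2, adjusted p = 1.4e-05), in 9 of 10 leukemias beyond every preleukemic sample. Nf1, which encodes the RAS inactivator neurofibromin, rose 1.53-fold (adjusted p = 4.11e-06). Calls of Fosb, Dusp5, Spred1 and Nf1 ended with the marker covariate, and those of Spred1 and Nf1 also with letter as a fixed term. AP-1 genes also respond to handling of cells, whose part in the result was not tested.

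Genes that FOXO factors switch on, and others that hold cells in arrest, fell together. Of 40 tested, 27 (67.5%, against 36.5%) were lower and 2 (5.0%, against 28.0%) higher, with a median difference of -0.679. With the marker covariate 11 were lower and 2 higher, in a fit where calls over all genes fell to 1424 lower and 2120 higher. With letter as a fixed term, which rests on 1 leukemia, the median difference was -1.2. Btg2, an antiproliferative gene, ran from 8.41 to 9.75 (median 8.80) in the leukemias and from 11.93 to 12.42 (median 12.07) in the preleukemic samples and fell 8.58-fold (SE 0.18 in log2, adjusted p = 9.83e-12). Ccng2, an unusual cyclin linked to arrest, fell 3.00-fold (SE 0.13 in log2, adjusted p = 1.89e-09). Cdkn1b, the CDK inhibitor p27, ran from 8.92 to 9.88 (median 9.32) in the leukemias and from 10.45 to 10.84 (median 10.58) in the preleukemic samples and fell 2.54-fold (SE 0.12 in log2, adjusted p = 9.48e-09). Gadd45b, a stress response gene, fell 2.87-fold (SE 0.24 in log2, adjusted p = 1.49e-05), a call that ended with the marker covariate and with letter as a fixed term. Cdkn2c, the CDK4 and CDK6 inhibitor p18, went the other way, from 9.57 to 11.02 (median 10.44) in the leukemias and from 7.81 to 8.48 (median 8.18) in the preleukemic samples, and rose 4.80-fold (SE 0.24 in log2, adjusted p = 1.04e-07).

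Genes of the PI3K pathway itself moved little. Of 34 tested, 15 (44.1%, against 36.5%) were lower, none over 2-fold, and 4 (11.8%, against 28.0%) higher. Pik3ca, a catalytic subunit, fell 1.70-fold (adjusted p = 2.18e-08) and Inppl1, the lipid phosphatase SHIP2, 2.00-fold (adjusted p = 2.93e-05). Rheb, the GTPase that activates mTORC1, rose 1.51-fold (adjusted p = 1.76e-05). Pik3cb, another catalytic subunit, rose 2.31-fold (adjusted p = 0.00177), but its difference turned to -0.46 with the marker covariate. The calls of Pik3cb and Inppl1 also ended with letter as a fixed term.

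Genes of the G1 step were more often higher than lower. Of 31 tested, 14 (45.2%, against 28.0%) were higher and 6 (19.4%, against 36.5%) lower. With the marker covariate, which lowered the number of calls over all genes, 3 were higher and 4 lower, so this lean was absent. Cdk6, a partner of D cyclins, ran from 11.49 to 12.4 (median 12.04) in the leukemias and from 9.6 to 10.2 (median 9.97) in the preleukemic samples and rose 4.18-fold (SE 0.16 in log2, adjusted p = 1.06e-09). Cdk4, its relative, ran from 12.18 to 12.56 (median 12.37) in the leukemias and from 11.19 to 11.76 (median 11.58) in the preleukemic samples and rose 1.81-fold (SE 0.08 in log2, adjusted p = 1.69e-08). Ccnd2, cyclin D2, ran from 7.61 to 11.98 (median 11.45) in the leukemias and from 8.12 to 8.93 (median 8.51) in the preleukemic samples and rose 5.80-fold (SE 0.46 in log2, adjusted p = 7.11e-05). In 9 leukemias it was above every preleukemic sample, and leukemia 7, at 7.61, was below all of them. Ccnd3, cyclin D3, the main D cyclin of pre-B cells, did not pass, with 9.02 to 10.51 against 10.04 to 10.43, a difference of -0.24 (SE 0.17, adjusted p = 0.206). The call of Ccnd2 ended with the marker covariate and with letter as a fixed term.

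Rb1, which encodes the retinoblastoma protein, a brake on entry into DNA synthesis, ran from 8.5 to 9.49 (median 9.00) in the leukemias and from 10.48 to 10.84 (median 10.59) in the preleukemic samples. It fell 3.11-fold (SE 0.12 in log2, adjusted p = 3.09e-10). E2f2 ran from 6.96 to 8.03 (median 7.64) in the leukemias and from 9.5 to 10.22 (median 9.96) in the preleukemic samples and fell 4.73-fold (SE 0.14 in log2, adjusted p = 2.36e-11). E2F2 is counted among the activating E2F factors, although its loss increases lymphocyte division in mice.

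**Figure D3:**
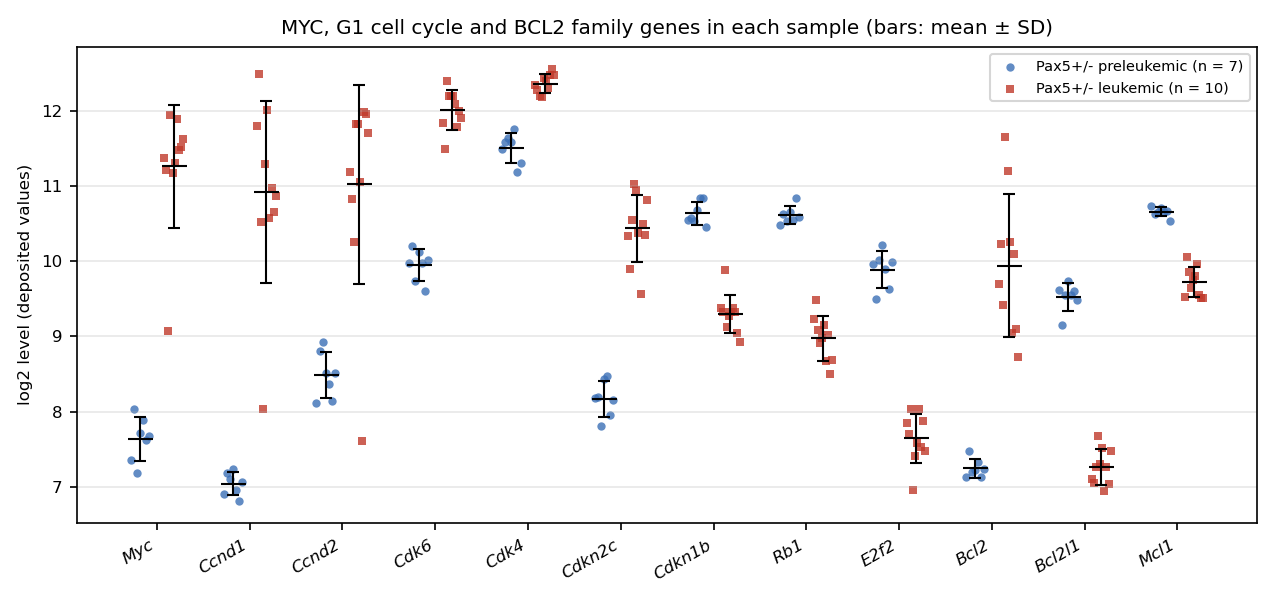
Deposited log2 level of 12 genes of MYC, the G1 cell cycle and the BCL2 family in each of 7 Pax5+/- preleukemic samples (circles) and 10 Pax5+/- leukemias (squares), with the mean ± SD of each group as black bars. The groups do not overlap for 11 of the 12 genes, and for Ccnd2 leukemia 7 lies at 7.61, below the preleukemic range of 8.12 to 8.93.

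MYC binds DNA as a dimer with MAX, and other partners of MAX oppose it. Of 13 network genes, 2 (15.4%, against 28.0%) rose, Myc itself and Max, and 6 (46.2%, against 36.5%) fell. Max ran from 9.86 to 10.32 (median 10.11) in the leukemias and from 9.87 to 10.0 (median 9.92) in the preleukemic samples and rose only 1.13-fold (adjusted p = 0.0111), a call that ended with median centring, with the marker covariate, with letter as a fixed term and with preleukemic samples 11 to 13 alone. Mlxip, a glucose-sensing member also called MondoA, fell 2.01-fold (adjusted p = 0.000239) and Zbtb17, the MYC partner MIZ1, 1.51-fold (adjusted p = 5.56e-07). Both calls ended with the marker covariate.

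The miR-17-92 cluster, whose transcript MYC is known to raise, was read by probe sets at miRNA loci, which measure RNA of the locus and not mature miRNA. These loci were chosen after their values were seen. Over all 134 miRNA loci tested, 8 were higher and 95 lower, with a median difference of -0.202. Among all genes 28.0% were higher and 36.5% lower, with a median difference of -0.053. Lower calls over all genes numbered 5677 with the filter on low values and 7959 without it. The count of lower loci is therefore not read as a fall of miRNAs. Mir18 ran from 6.47 to 8.89 (median 8.15) in the leukemias and from 4.93 to 5.64 (median 5.46) in the preleukemic samples and rose 6.71-fold (SE 0.27 in log2, adjusted p = 3.32e-08), and Mir19a ran from 4.79 to 6.83 (median 6.07) in the leukemias and from 4.28 to 4.73 (median 4.39) in the preleukemic samples and rose 3.06-fold (SE 0.22 in log2, adjusted p = 2.3e-06). Preleukemic levels of both lay below the array medians, so neither fold is exact. The host transcript Mir17hg ran from 6.2 to 7.73 (median 7.05) in the leukemias and from 6.0 to 6.79 (median 6.33) in the preleukemic samples, so its groups overlapped, and rose 1.54-fold (adjusted p = 0.00131). Mir17 itself lay below the array medians in every sample, 4.83 to 5.21 against 5.15 to 5.65, and fell 1.27-fold (adjusted p = 0.000247). Outside the cluster, Mir15a rose 2.75-fold (adjusted p = 6.05e-07), and Mir7-1 fell 2.06-fold (adjusted p = 1.46e-06). Calls of Mir17hg, Mir15a, Mir17 and Mir7-1 ended with the marker covariate, those of Mir17 and Mir7-1 also with letter as a fixed term.

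The mature sequences of these loci, from RefSeq on GRCm38.p6, are shown so that their seeds can be compared, with bases 2 to 8 in capitals. The positions are chr14:115043684-115043706, chr14:115043867-115043889 and chr14:115044048-115044070 on the plus strand for the cluster, and chr14:61632075-61632096 and chr13:58392841-58392863 on the minus strand for the others. No seed is shared among the 5.
miR-17-5p: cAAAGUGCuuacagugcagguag
miR-18a-5p: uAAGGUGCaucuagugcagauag
miR-19a-3p: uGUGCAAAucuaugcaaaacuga
miR-15a-5p: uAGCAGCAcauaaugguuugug
miR-7a-5p: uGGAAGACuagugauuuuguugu

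Promoters of genes that moved were searched for CACGTG, the E-box that MYC with MAX can bind, and for CCAAT, the core that NF-Y binds, on both strands. TTTGAA, part of the cell cycle homology element, was searched too. Windows of 300 bases around each start came from RefSeq on GRCm38.p6, and 12267 of the 15542 genes had at least 1. CACGTG was in 9.1% of the windows of genes tested, in 9.9% of those of genes higher over 2-fold and in 9.9% of those lower over 2-fold. It was in 31.6% of 19 windows of mitochondrial import genes that rose and in 33.3% of 15 windows of G1 genes that rose. It was also in 34.6% of 26 windows of arrest genes that fell, in 18.8% of 32 of nuclear transport genes that rose, in 9.1% of 22 of amino acid supply genes that rose, in 6.5% of 31 of B cell transcription factors that fell and in none of 23 of histone genes. TTTGAA was in 12.5% of the windows of genes tested. Its share was 17.3% for genes higher over 2-fold and 11.7% for genes lower over 2-fold. It was in 34.4% of 32 windows of nuclear transport genes that rose, in 7.7% of 26 of arrest genes that fell and in 47.8% of 23 of histone genes. CCAAT was in 36.9% of the windows of genes tested. Its share was 36.5% for genes higher over 2-fold and 35.8% for genes lower over 2-fold. It was in 50% of 32 windows of nuclear transport genes that rose and in 57.7% of 26 of arrest genes that fell. Mitochondrial import genes that rose had it in 26.3% of 19 and histone genes in 87.0% of 23. These shares are descriptions, and a match is no evidence of binding.

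Shown are the windows of Cdk4 and Hspd1, which rose and hold CACGTG, of Gadd45b, which fell and holds it too, and of Kpna2, which rose and holds CCAAT or its reverse complement. Capitals mark the motif. Cdk4 holds 4 copies, starting 172, 118, 98 and 11 bases before the gene's start, and Hspd1 and Gadd45b hold 1 each, 80 and 185 bases before it. Another window of Hspd1, at another start, holds none. Kpna2 holds 2, starting 25 bases before and 6 after its start.
Cdk4, chr10:127063285-127063584, plus strand: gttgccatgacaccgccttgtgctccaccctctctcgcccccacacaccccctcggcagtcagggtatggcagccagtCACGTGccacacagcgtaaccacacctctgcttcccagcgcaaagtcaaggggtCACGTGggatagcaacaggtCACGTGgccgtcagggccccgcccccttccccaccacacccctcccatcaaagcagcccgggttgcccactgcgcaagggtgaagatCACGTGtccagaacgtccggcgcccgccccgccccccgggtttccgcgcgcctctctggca
Hspd1, chr1:55088194-55088493, minus strand: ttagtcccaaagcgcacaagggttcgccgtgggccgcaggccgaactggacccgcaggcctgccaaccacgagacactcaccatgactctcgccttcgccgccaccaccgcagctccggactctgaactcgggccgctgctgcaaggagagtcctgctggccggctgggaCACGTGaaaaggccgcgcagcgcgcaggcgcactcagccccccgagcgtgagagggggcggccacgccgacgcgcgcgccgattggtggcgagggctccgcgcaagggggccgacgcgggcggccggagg
Gadd45b, chr10:80929841-80930140, plus strand: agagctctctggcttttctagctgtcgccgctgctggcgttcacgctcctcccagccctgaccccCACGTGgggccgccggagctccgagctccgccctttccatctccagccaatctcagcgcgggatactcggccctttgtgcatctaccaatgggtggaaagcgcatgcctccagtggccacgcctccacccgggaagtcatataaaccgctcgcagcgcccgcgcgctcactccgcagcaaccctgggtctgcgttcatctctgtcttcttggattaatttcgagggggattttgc
Kpna2, chr11:106999476-106999775, minus strand: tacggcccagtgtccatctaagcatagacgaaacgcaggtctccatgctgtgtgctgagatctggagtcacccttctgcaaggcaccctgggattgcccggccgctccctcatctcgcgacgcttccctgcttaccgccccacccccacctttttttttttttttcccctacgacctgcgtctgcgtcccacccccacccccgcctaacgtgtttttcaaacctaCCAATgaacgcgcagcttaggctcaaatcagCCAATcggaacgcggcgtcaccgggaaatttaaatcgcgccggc

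Genes of biosynthesis rose as groups. Among nuclear pore and transport genes, 34 of 49 (69.4%, against 28.0%) were higher and 1 (2.0%, against 36.5%) lower, with a median difference of 0.427. Kpna2, an importin that carries cargo into the nucleus, ran from 11.01 to 11.92 (median 11.64) in the leukemias and from 9.5 to 10.43 (median 9.85) in the preleukemic samples and rose 3.23-fold (SE 0.23 in log2, adjusted p = 2.96e-06). Ipo4, which imports histones and ribosomal proteins, ran from 8.44 to 9.06 (median 8.78) in the leukemias and from 7.14 to 7.37 (median 7.16) in the preleukemic samples and rose 2.95-fold (SE 0.08 in log2, adjusted p = 1.16e-12). Xpot, the exporter of tRNA, rose 2.56-fold (SE 0.10 in log2, adjusted p = 7.08e-10). The exception was the pore scaffold gene Nup160, which fell 1.17-fold (adjusted p = 0.00931), and its difference turned to 0.06 with the marker covariate. Its call ended with letter as a fixed term and with preleukemic samples 11 to 13 alone. With that covariate 15 of the list were higher and none lower, and the call of Kpna2 ended.

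Mitochondrial import and folding showed the same pattern, with 22 of 34 (64.7%, against 28.0%) higher and 3 (8.8%, against 36.5%) lower, and 17 higher with the marker covariate. Hspa9, the motor of import into the matrix, ran from 10.16 to 11.01 (median 10.40) in the leukemias and from 8.49 to 8.98 (median 8.71) in the preleukemic samples and rose 3.32-fold (SE 0.14 in log2, adjusted p = 1.36e-09). Hspd1, the matrix chaperonin HSP60, rose 2.28-fold (SE 0.16 in log2, adjusted p = 2.23e-06). Whether its probe set, or that of Kpna2, reads the gene or a related copy elsewhere was not checked. C1qbp, needed for mitochondrial translation, rose 2.35-fold (SE 0.12 in log2, adjusted p = 1.46e-08), and the outer membrane receptor gene Tomm20 2.00-fold (SE 0.11 in log2, adjusted p = 7.94e-08). For all 4 genes every leukemia was above every preleukemic sample.

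Of 36 cytosolic chaperone genes, 18 (50%, against 28.0%) were higher and 5 (13.9%, against 36.5%) lower. Cct3 and Cct6a, subunits of the TRiC ring that folds actin and tubulin, rose 2.21-fold (adjusted p = 1.97e-07) and 1.99-fold (adjusted p = 1.48e-08), and the HSP90 cochaperone gene Ptges3 2.46-fold (adjusted p = 6.01e-08). Dnajc7, another cochaperone, fell 1.68-fold (adjusted p = 1.29e-10). Spliceosome genes rose by less, 21 of 47 (44.7%, against 28.0%) higher and 5 (10.6%, against 36.5%) lower, with 1 over 2-fold. Lsm3 and Lsm7, of the ring that binds U6 RNA, rose 2.06-fold (adjusted p = 9.94e-06) and 1.94-fold (adjusted p = 2.19e-08), while the splicing regulators Srsf3 and Srsf5 fell 1.63-fold (adjusted p = 4.63e-07) and 1.51-fold (adjusted p = 9.36e-07).

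Cytosolic ribosomal protein genes had the highest share of higher genes among the 29 gene programme lists, 43 of 60 (71.7%, against 28.0%), and 2 (3.3%, against 36.5%) were lower, yet no change passed 2-fold and the median difference was 0.24. Rps18 ran from 12.69 to 12.91 (median 12.81) in the leukemias and from 12.19 to 12.55 (median 12.29) in the preleukemic samples and rose 1.39-fold (adjusted p = 3.2e-08). The largest rise was in Rps27l, a p53-induced paralogue of Rps27, at 1.74-fold (adjusted p = 5.89e-05), and the largest fall in Rpl3l, a muscle paralogue of Rpl3 at or below the array medians in the leukemias, at 1.78-fold (adjusted p = 7.27e-06). Both calls ended with the marker covariate. With median centring 30 were higher and 5 lower, so part of these small rises depends on the scaling. Paralogues and pseudogenes can share probes with ribosomal protein genes, so single members are uncertain.

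The 10 genes of any list with the narrowest 95% intervals, all within 0.322 of zero in log2, were Fau, Gna14, Hlf, Rpl10, Rpl19, Rpl28, Rpl38, Rplp0, Rps15 and Rps6, most of them ribosomal protein genes. Rps6 ran from 13.34 to 13.42 (median 13.40) in the leukemias and from 13.35 to 13.4 (median 13.37) in the preleukemic samples, a difference of 0.02 (95% interval -0.03 to 0.07), and Rpl19 differed by 0.06 (95% interval -0.01 to 0.14). Rplp0 differed by 0.10 (95% interval 0.03 to 0.18) and Rps15 by 0.07 (95% interval 0.01 to 0.13). All 4 intervals lay within 0.322 of zero, as did those of 5890 genes (37.9%). Rplp0 and Rps15 passed the test by a margin that ended with quantile normalization and with median centring, and that of Rps15 also without any of leukemias 3, 4, 7 and 9 or preleukemic samples 11, 21 and 24. Both calls ended with letter as a fixed term and with preleukemic samples 11 to 13 alone, that of Rplp0 with 21 to 24 alone and that of Rps15 with the marker covariate.

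Amino acid supply and one-carbon metabolism held the largest median rise of the 29 gene programme lists, 0.624, with 22 of 36 (61.1%, against 28.0%) higher and 2 (5.6%, against 36.5%) lower. Slc7a5 and Slc3a2 form the LAT1 transporter of large neutral amino acids. Slc7a5 ran from 10.01 to 10.8 (median 10.50) in the leukemias and from 7.93 to 8.32 (median 8.18) in the preleukemic samples and rose 4.90-fold (SE 0.16 in log2, adjusted p = 1.14e-10), and Slc3a2 rose 2.02-fold (adjusted p = 1.48e-09). Shmt2 and Shmt1, which take a carbon unit from serine in mitochondria and cytosol, rose 3.56-fold (adjusted p = 2.67e-11) and 3.21-fold (adjusted p = 1.29e-09). Srm, spermidine synthase, ran from 9.22 to 11.3 (median 10.74) in the leukemias and from 7.84 to 8.28 (median 8.07) in the preleukemic samples and rose 5.98-fold (SE 0.24 in log2, adjusted p = 8.99e-09), with leukemia 3 lowest at 9.22. Glul, glutamine synthetase, fell 2.08-fold (adjusted p = 0.000951), in 9 of 10 leukemias below every preleukemic sample.

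Cholesterol synthesis genes rose too, 15 of 23 (65.2%, against 28.0%), and 1 (4.3%, against 36.5%) was lower. Sqle, squalene epoxidase, rose 2.85-fold (adjusted p = 4.4e-05), the isomerase gene Idi1 2.42-fold (adjusted p = 8.23e-05) and Srebf2, the pathway's main activator, 1.76-fold (adjusted p = 3.31e-06). Insig2, which retains that activator, fell 1.32-fold (adjusted p = 0.000896). The calls of all 4 ended with the marker covariate, with which 3 of the list were higher and none lower, and that of Insig2 also with letter as a fixed term.

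Genes of protein folding in the endoplasmic reticulum moved in both directions. Of 42, 19 (45.2%, against 28.0%) were higher and 14 (33.3%, against 36.5%) lower, and 7 of the 9 changes over 2-fold were falls. Counts were 3 higher and 8 lower with the marker covariate. Edem3, which trims mannose from misfolded proteins, ran from 8.45 to 9.06 (median 8.90) in the leukemias and from 10.74 to 11.13 (median 11.06) in the preleukemic samples and fell 4.47-fold (SE 0.09 in log2, adjusted p = 8.41e-14). Eif2ak3, the stress sensor PERK, ran from 7.8 to 9.39 (median 8.06) in the leukemias and from 9.81 to 10.32 (median 10.01) in the preleukemic samples and fell 3.69-fold (SE 0.16 in log2, adjusted p = 3.48e-09), with leukemia 3 highest of the leukemias. Canx, the chaperone calnexin, rose 1.66-fold (adjusted p = 6.73e-09), and Sdf2l1, a chaperone partner, 2.63-fold (adjusted p = 1.95e-05), a call that ended with the marker covariate.

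Lysosome and autophagy genes went opposite ways. Of 47 lysosome genes, 27 (57.4%, against 28.0%) were higher and 6 (12.8%, against 36.5%) lower, but with the marker covariate 7 were higher and 8 lower. Ctsd, cathepsin D, ran from 10.33 to 11.45 (median 10.67) in the leukemias and from 8.72 to 9.1 (median 8.87) in the preleukemic samples and rose 3.57-fold (SE 0.14 in log2, adjusted p = 9.96e-10), and Gaa, the acid glucosidase, rose 2.52-fold (SE 0.08 in log2, adjusted p = 2.67e-11). Tfeb, a transcription factor of lysosome genes, ran from 7.1 to 7.97 (median 7.42) in the leukemias and from 8.5 to 8.89 (median 8.68) in the preleukemic samples and fell 2.35-fold (SE 0.10 in log2, adjusted p = 2.41e-09). Of 41 autophagy genes, 22 (53.7%, against 36.5%) were lower and 5 (12.2%, against 28.0%) higher. Atg16l2 fell 2.32-fold (SE 0.10 in log2, adjusted p = 1.85e-09) and Gabarap, of the family coupled to autophagosome membranes, 1.36-fold (adjusted p = 6.14e-08). Its relative Gabarapl1 rose 2.35-fold (adjusted p = 4e-07), a call that ended with letter as a fixed term.

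Redox genes rose in 20 of 39 (51.3%, against 28.0%) and fell in 6 (15.4%, against 36.5%). Counts were 6 higher and 6 lower with the marker covariate. Gsto1, a glutathione transferase, ran from 8.88 to 9.78 (median 9.34) in the leukemias and from 6.03 to 6.66 (median 6.37) in the preleukemic samples and rose 7.97-fold (SE 0.15 in log2, adjusted p = 1.12e-12). Txnrd1, thioredoxin reductase, rose 1.98-fold (adjusted p = 8.98e-08). Gclc, the catalytic subunit for glutathione synthesis, ran from 8.6 to 10.54 (median 9.21) in the leukemias and from 10.75 to 11.41 (median 11.27) in the preleukemic samples and fell 3.57-fold (SE 0.19 in log2, adjusted p = 4.37e-08), and Gstm1 fell 4.06-fold (SE 0.20 in log2, adjusted p = 3.64e-08).

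Enzymes that write and erase histone marks mostly fell by small steps. Of 57, 36 (63.2%, against 36.5%) were lower and 14 (24.6%, against 28.0%) higher, with a median difference of -0.347, and 4 changes in each direction passed 2-fold. Counts were 10 higher and 11 lower with the marker covariate. Kdm5b, which removes methyl groups from lysine 4 of histone H3, ran from 5.35 to 6.23 (median 5.69) in the leukemias and from 8.92 to 9.28 (median 9.18) in the preleukemic samples. It fell 10.5-fold (SE 0.13 in log2, adjusted p = 2.49e-14), to about the array medians in the leukemias. Hdac8 and Hdac5, histone deacetylases, fell 4.24-fold (SE 0.12 in log2, adjusted p = 4.78e-12) and 3.50-fold (SE 0.12 in log2, adjusted p = 1.41e-10). The mitochondrial deacetylase gene Sirt3 rose 2.94-fold (SE 0.11 in log2, adjusted p = 2.34e-10).

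Polycomb genes were even, 9 of 33 (27.3%) in each direction, against 28.0% higher and 36.5% lower among all genes. Ezh2, the methyltransferase of lysine 27 of histone H3, ran from 10.86 to 11.52 (median 11.26) in the leukemias and from 11.71 to 12.2 (median 11.93) in the preleukemic samples and fell 1.66-fold (adjusted p = 8.11e-07). Bmi1, of the other complex, rose 2.15-fold (adjusted p = 3.45e-07), and Asxl1, of the deubiquitinase complex, 2.00-fold (adjusted p = 1.67e-07). Among 28 cohesin and condensin genes, 12 (42.9%, against 28.0%) were higher and 7 (25%, against 36.5%) lower. Counts were 1 higher and 4 lower with the marker covariate. Nipbl, the cohesin loader, ran from 9.14 to 9.79 (median 9.66) in the leukemias and from 10.59 to 10.89 (median 10.81) in the preleukemic samples and fell 2.31-fold (SE 0.10 in log2, adjusted p = 1.55e-09), while Wapl, which releases cohesin, ran from 8.64 to 9.32 (median 8.93) in the leukemias and from 6.68 to 7.36 (median 7.12) in the preleukemic samples and rose 3.67-fold (SE 0.14 in log2, adjusted p = 3.91e-10). Top2b fell 1.61-fold (adjusted p = 6.31e-08). PAX5 is known to hold down WAPL in pro-B cells, and this repression widens the chromatin loops that feed heavy chain rearrangement. Any part of PAX5 in the rise of Wapl was not tested.

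Replication-dependent histones did not move as a group, with 5 of 27 (18.5%, against 28.0%) higher and 6 (22.2%, against 36.5%) lower. The linker histone gene H1f2 fell 3.80-fold (SE 0.14 in log2, adjusted p = 4.22e-10), and H4c4 rose 1.36-fold (adjusted p = 0.000151), a call that ended with the marker covariate and with letter as a fixed term. These genes are near-identical copies, so probe sets may read several of them.

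Survival genes of the BCL2 family moved apart. Of 33 death and survival genes, 14 (42.4%, against 28.0%) were higher and 10 (30.3%, against 36.5%) lower. Bcl2, which keeps mitochondria intact, ran from 8.72 to 11.65 (median 9.90) in the leukemias and from 7.13 to 7.48 (median 7.22) in the preleukemic samples and rose 6.47-fold (SE 0.35 in log2, adjusted p = 1.44e-06). Bcl2l1, which encodes BCL-XL and is the survival factor of pre-B cells, ran from 6.95 to 7.68 (median 7.27) in the leukemias and from 9.15 to 9.74 (median 9.55) in the preleukemic samples and fell 4.81-fold (SE 0.14 in log2, adjusted p = 3.39e-11). Mcl1 ran from 9.51 to 10.06 (median 9.70) in the leukemias and from 10.54 to 10.73 (median 10.66) in the preleukemic samples and fell 1.92-fold (SE 0.08 in log2, adjusted p = 2.32e-09). Ripk3, the kinase of necroptosis, rose 2.24-fold (adjusted p = 4.91e-10) and Tnfrsf1b, a TNF receptor, 2.01-fold (adjusted p = 1.45e-08). The call of Bcl2 ended with the marker covariate and with letter as a fixed term, while those of Bcl2l1 and Mcl1 held with the marker covariate.

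Receptors for cytokines and growth factors rose in 13 of 33 (39.4%, against 28.0%) and fell in 4 (12.1%, against 36.5%), and 11 rises passed 2-fold. Counts were 4 higher and 5 lower with the marker covariate. Flt3, the receptor tyrosine kinase of early lymphoid and myeloid progenitors that PAX5 is known to silence, ran from 9.25 to 13.29 (median 10.99) in the leukemias and from 5.56 to 6.77 (median 5.87) in the preleukemic samples. It rose 31.3-fold (SE 0.44 in log2, adjusted p = 5.55e-09), kept its call with the marker covariate, and was near background in every preleukemic sample. Il18rap, a chain of the interleukin 18 receptor, ran from 6.67 to 10.61 (median 9.99) in the leukemias and from 5.47 to 6.27 (median 5.85) in the preleukemic samples and rose 14.6-fold (SE 0.42 in log2, adjusted p = 1.28e-07), with leukemia 7 lowest at 6.67 and a preleukemic level not above background. Ifngr1, of the interferon gamma receptor, rose 2.84-fold (SE 0.11 in log2, adjusted p = 5.3e-10) and Il27ra 2.96-fold (SE 0.14 in log2, adjusted p = 1e-08). Kit, the stem cell factor receptor, ran from 7.19 to 11.65 (median 8.05) in the leukemias and from 6.37 to 6.67 (median 6.58) in the preleukemic samples and rose 3.96-fold (SE 0.56 in log2, adjusted p = 0.00399), with leukemia 10 highest. Il7r, the interleukin 7 receptor, did not pass, at 11.67 to 12.65 in leukemias and 12.35 to 12.75 in preleukemic samples (difference -0.23, 95% interval -0.56 to 0.10, adjusted p = 0.202). Il2ra, CD25 of pre-B cells, fell 2.44-fold (adjusted p = 0.00931), in 8 of 10 leukemias beyond every preleukemic sample. Calls of Kit and Il2ra ended with the marker covariate and with preleukemic samples 11 to 13 alone, and that of Il2ra also with letter as a fixed term.

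Of 32 adhesion and chemokine receptor genes, 12 (37.5%, against 28.0%) were higher and 6 (18.8%, against 36.5%) lower. Counts were 3 higher and 4 lower with the marker covariate. S1pr1, which guides lymphocytes out of tissues, ran from 6.21 to 7.33 (median 6.86) in the leukemias and from 9.08 to 9.84 (median 9.35) in the preleukemic samples and fell 6.14-fold (SE 0.15 in log2, adjusted p = 1.39e-11). Cd44, a hyaluronan receptor, fell 2.92-fold (SE 0.18 in log2, adjusted p = 3.42e-07) and Cxcr4, the receptor that holds B cell precursors in marrow, 1.89-fold (adjusted p = 1.14e-05). Itga5 and Itgb1, the chains of the fibronectin receptor, rose 2.55-fold (adjusted p = 8.86e-07) and 2.55-fold (adjusted p = 2.51e-09). Cxcr5, of follicular B cells, ran from 5.54 to 9.55 (median 7.56) in the leukemias and from 5.63 to 6.13 (median 5.72) in the preleukemic samples and rose 3.59-fold (adjusted p = 0.00127). Calls of Cxcr4 and Cxcr5 ended with the marker covariate.

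G protein signalling genes rose in 18 of 44 (40.9%, against 28.0%) and fell in 9 (20.5%, against 36.5%). Counts were 6 higher and 5 lower with the marker covariate. Adcy6, an adenylyl cyclase, ran from 8.43 to 10.09 (median 9.56) in the leukemias and from 6.51 to 6.9 (median 6.62) in the preleukemic samples and rose 6.78-fold (SE 0.18 in log2, adjusted p = 6.84e-11). Arrb1, an arrestin that ends receptor signals, rose 3.41-fold (SE 0.14 in log2, adjusted p = 9.36e-10). The scaffold gene Akap12 ran from 7.14 to 8.87 (median 7.49) in the leukemias and from 10.59 to 10.94 (median 10.76) in the preleukemic samples and fell 8.46-fold (SE 0.22 in log2, adjusted p = 2.85e-10).

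Progenitor genes did not move one way, with 10 of 32 (31.2%, against 28.0%) higher and 11 (34.4%, against 36.5%) lower. Lmo2, a bridge protein of stem cell factors, ran from 10.1 to 11.01 (median 10.48) in the leukemias and from 7.59 to 8.49 (median 7.97) in the preleukemic samples and rose 5.95-fold (SE 0.18 in log2, adjusted p = 2.47e-10). Igf2bp3, an RNA-binding protein of fetal lymphoid cells, rose 4.13-fold (SE 0.24 in log2, adjusted p = 2.63e-07), while Arid3a fell 1.95-fold (adjusted p = 1.72e-06), a call that ended with the marker covariate. Of 28 T lineage genes, 10 (35.7%, against 28.0%) were higher and 3 (10.7%, against 36.5%) lower. Counts were 3 higher and 2 lower with the marker covariate. The adaptor gene Grap2 rose 4.04-fold (SE 0.20 in log2, adjusted p = 3.72e-08) and Lat, the T cell adaptor, 3.22-fold (SE 0.24 in log2, adjusted p = 5.16e-06), the latter call ending with the marker covariate. Rhoh, a GTPase of lymphocytes, fell 4.62-fold (SE 0.21 in log2, adjusted p = 1.96e-08) and Dtx1, a Notch target, 2.85-fold (SE 0.13 in log2, adjusted p = 5.55e-09).

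**Figure D4:**
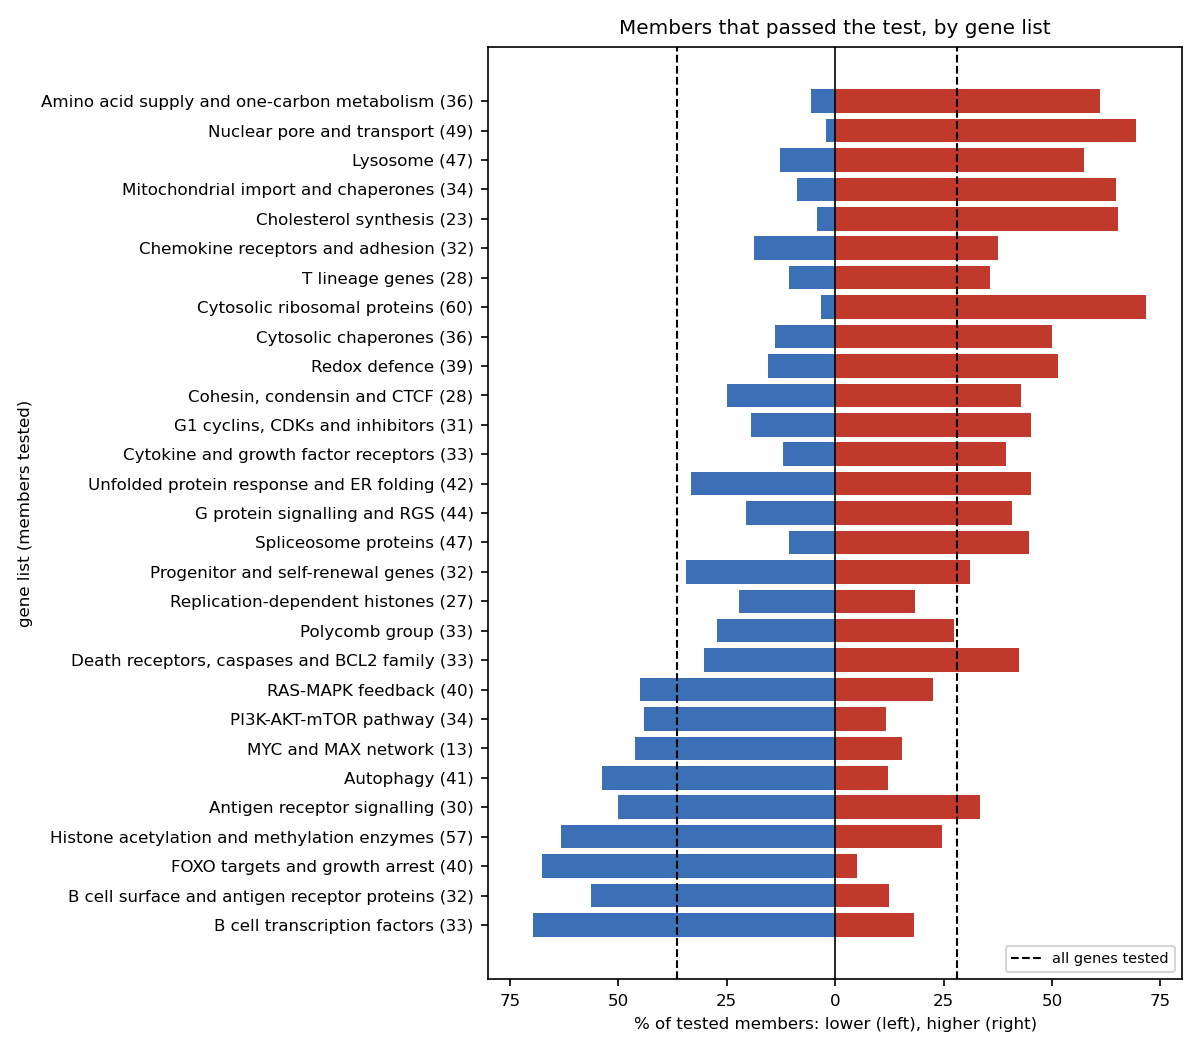
Share of tested members of 29 gene lists that were lower (left bars, percent) or higher (right bars, percent) in Pax5+/- leukemia, with the number tested in parentheses and lists ordered by median difference. Dashed lines mark the shares over all genes, 36.5% lower and 28.0% higher. Ribosomal proteins reach 71.7% higher and B cell transcription factors 69.7% lower.

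Lists of cell type markers were averaged in each sample and compared by exact permutation, adjusted over 14 lists. B lineage precursor markers averaged 9.9 to 10.67 in the leukemias and 11.18 to 11.39 in the preleukemic samples, a difference of -0.90 (adjusted exact p = 0.00018), and 16 of the 17 stayed above the array median in every leukemia. Both groups thus carried B precursor markers. Megakaryocyte markers averaged 7.64 to 10.53 against 6.61 to 6.74, a difference of 2.54 (adjusted exact p = 0.00018). Stroma markers averaged 6.83 to 8.42 against 5.92 to 6.11, a difference of 1.64, and endothelial markers 6.57 to 8.01 against 6.33 to 6.39, a difference of 1.08 (adjusted exact p = 0.00018 for each). These 4 lists did not overlap between the groups and had an unadjusted p of 5.14e-05, the smallest that these group sizes allow.

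Markers of neutrophils averaged 6.13 to 10.83 in the leukemias and 6.15 to 6.83 in the preleukemic samples, a difference of 1.73 (adjusted exact p = 0.015). Leukemia 4 lay below the preleukemic range and leukemia 7 inside it, while leukemias 2 and 6 lay far above. Monocyte and macrophage markers averaged 6.61 to 8.9 against 5.98 to 6.17, a difference of 1.42 (adjusted exact p = 0.000288), and these groups did not overlap either. In preleukemic samples, 8 of the 16 monocyte markers, among them Cd14, Adgre1 and Fcgr1, and 4 of the 16 neutrophil markers were above the array median in no sample. Erythroid markers were lower by 0.42 (adjusted exact p = 0.0105) and mature B cell markers by 0.60 (adjusted exact p = 0.0366). Only 1 of the 8 erythroid markers passed limma's test. Their largest fall was -2.02 and their median difference -0.229. By the median over members in each sample, erythroid markers were lower by 0.49 (adjusted exact p = 0.0353).

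T cell markers were higher by 0.62 (adjusted exact p = 0.00761) and conventional dendritic cell markers by 0.60 (adjusted exact p = 0.00132), differences that did not pass when the median over members was used. Only 1 of the 10 conventional dendritic cell markers passed limma's test, Flt3 with a difference of 4.97. The median difference of these 10 genes was 0.066, so their mean rests largely on Flt3. Of 10 T cell markers, 7 were above the array median in no preleukemic sample, and Cd3d and Bcl11b in no leukemia. Differences of plasma cell (-0.13), NK cell (0.06), plasmacytoid dendritic cell (0.41) and basophil, mast cell and eosinophil markers (0.19) did not pass. The plasma cell mean joins opposite moves, with 2 of 9 members higher and 4 lower by limma's test, from -2.91 to 5.21. With the median over members, NK cell markers were lower by 0.65 (adjusted exact p = 0.0422).

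**Figure D5:**
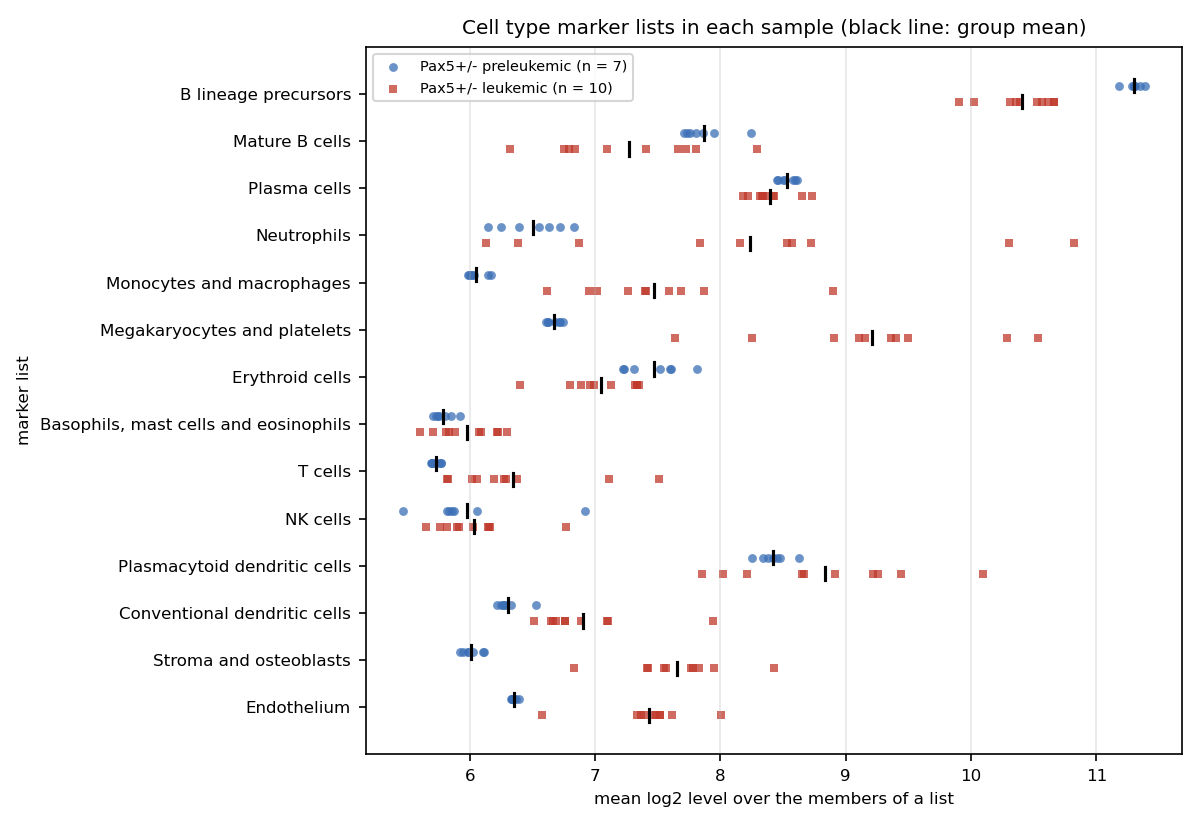
Mean log2 level over the members of 14 cell type marker lists in each of 7 Pax5+/- preleukemic samples (circles) and 10 Pax5+/- leukemias (squares), with group means as black lines. Megakaryocyte, stromal and endothelial lists lie higher in every leukemia than in every preleukemic sample, and neutrophil markers spread from 6.13 to 10.83 among leukemias.

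Some genes split the leukemias from each other, and 4 are named here after their values were seen, from the 20 genes of largest SD among leukemias. Kcnma1, a calcium-activated potassium channel, ran from 10.91 to 13.44 in 7 leukemias, while it was 5.24, 4.87 and 7.09 in leukemias 2, 5 and 9. Preleukemic samples lay from 5.1 to 5.91, so leukemias 2 and 5 were below 6 like them. The group difference was 5.32 (SE 1.28, adjusted p = 0.00124), and 5.93 without leukemia 2 and 5.97 without leukemia 5. Cdh17, a cadherin also found on B lineage cells, was 10.02 to 11.85 in leukemias 1, 2, 3, 5 and 6 and 4.88 to 8.68 in the others, against 4.77 to 4.99 in the preleukemic samples. Its difference was 3.80 (adjusted p = 0.00186), and it turned to -0.74 with the marker covariate. The calls of both ended with letter as a fixed term, and that of Kcnma1 held with the marker covariate.

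Ly6d, a surface protein of B cell-biased progenitors, was 6.26 in leukemia 6 and 8.24 in leukemia 7, against 10.61 to 12.6 in the other 8. Peg10, an imprinted gene, was 12.13 in leukemia 7 and between 5.42 and 6.49 in the others. Neither passed the test between the groups, with adjusted p = 0.717 for Ly6d and 0.243 for Peg10.

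Whether the stage difference depended on genotype was tested with the WT samples, 3 leukemic and 3 preleukemic. At an adjusted p under 0.05, 15 of 15542 genes (0.0965%) differed, all with a higher difference in Pax5+/- mice, and 1118 had an unadjusted p under 0.05. In the 5 of smallest p, WT preleukemic samples had the highest mean of the 4 groups. Tmc7, of a channel-like family, was 7.01, 6.93 and 6.06 in WT preleukemic samples, 4.87 to 5.0 in WT leukemias, and 4.9 to 5.3 in all Pax5+/- samples. Its stage difference was -0.17 in Pax5+/- and -1.73 in WT mice, apart by 1.56 (SE 0.17, adjusted p = 0.000104). Edaradd, an adaptor of the EDAR receptor, differed by 1.92 (adjusted p = 0.000904) and Col5a3, a collagen chain, by 0.88 (adjusted p = 0.00271).

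Dock9, an activator of CDC42, had a stage difference of 0.72 in Pax5+/- and -2.03 in WT mice, a gap of 2.75 (adjusted p = 0.00373). For Pacs2, a trafficking protein, the values were 0.64 and -0.97, a gap of 1.62 (adjusted p = 0.00439). The 15 also held Slc1a5, a glutamine transporter, which ran 7.96 to 9.12 in Pax5+/- leukemias and 8.17 to 8.84 in Pax5+/- preleukemic samples, against 9.26 to 9.95 and 11.3 to 11.79 in WT. Bcat1, which breaks down branched amino acids, and Mtor, the growth kinase, had gaps of 1.61 (adjusted p = 0.0308) and 0.53 (adjusted p = 0.0297), and these 3 were named after their values were seen. The stage calls of Col5a3, Dock9 and Pacs2 within Pax5+/- mice ended with letter as a fixed term, and those of Col5a3 and Dock9 also with the marker covariate and with preleukemic samples 11 to 13 alone, that of Col5a3 with 21 to 24 alone. In the opposite direction no gene passed limma's interaction test. The 5 of smallest p were Oaf at -1.09 (adjusted p = 0.0711), Prep at -0.57 (adjusted p = 0.0852), Cpox at -1.44 (adjusted p = 0.166), Cth at -0.48 and Klf1 at -1.01 (adjusted p = 0.194 for each).

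This count rested on few WT samples. It was 98 without WT leukemia 14, of which 74 were negative, 9 without WT leukemia 15, 6 without WT preleukemic sample 19 and 36 without WT preleukemic sample 20. Without Pax5+/- leukemia 7 it was 24. All 15 genes were still called without WT leukemia 14, 13 without sample 20, 9 without leukemia 15 and 6 without sample 19. WT preleukemic sample 20 had a marker component of 3.35, inside the Pax5+/- leukemic range of -2.21 to 14.66. Samples 18 and 19 lay at -10.89 and -10.32. Myc was 9.35 in sample 20, against 7.72 and 7.77 in samples 18 and 19. The part of sample 20 in single WT differences was not tested. For Pax5 itself the stage difference was -2.55 in WT mice, a gap of -0.31 (SE 1.07, adjusted p = 0.985), and for Ikzf3, Flt3 and Myc the gaps were -0.13, 1.31 and 0.82, none of which passed.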

How the data were processed

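Gene expression was measured on Affymetrix arrays in 23 samples, 17 of them Pax5+/-. The authors deposited log2 gene-level values per sample, made with Transcriptome Analysis Console per the submitters' processing notes. Background correction, normalization and the software version are not given in the sources used here, so a step that equalizes arrays may hide a shift shared by most genes. Of 28944 probe sets, 21789 had 1 gene symbol, and the probe set of highest mean stood for each gene. Their genome positions were not checked, so some may read a pseudogene or related copy. Genes above the 30th percentile of an array on at least 3 arrays were tested with limma 3.58.1 in R 4.3.3, over all 4 groups and with an intensity trend, and Benjamini-Hochberg adjustment over 15542 genes. Marker lists and Pax5 were compared by exact permutation in Python 3.11.15.

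Groups came from the sample titles. P-values set a group difference against the spread between these samples, for which limma used 1 estimate per gene over all 4 groups. Members and lists were chosen with earlier results of these data known. The text names Pax5, the 12 largest rises and falls without overlap and with both means above the array medians, and, per list, passing members of smallest p and largest change and members that describe a role. It also names the 10 narrowest intervals and the 5 genes of smallest p in each direction for the genotype comparison. Not every gene this rule allows is described, and Mir18, Mir19a, Mir17hg, Mir17, Mir15a, Mir7-1, Kcnma1, Cdh17, Ly6d, Peg10, Slc1a5, Mtor and Bcat1 were chosen after their values were seen. Alternatives varied the filter, variance prior, weights, normalization, probe sets, covariates and samples. On simulated data the stage fit recovered 93.8% of 96 genes changed by 1 in log2 and 99% of 104 changed by 2. The genotype comparison recovered 68% and 94% of 100 each. False calls numbered 10 and 11. The simulated noise was normal, independent and of the same SD in all groups. In the data the leukemias varied more, so these rates may not hold there.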

Additional observations from a re-analysis of the deposited data

Results flagged for a closer look

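In each group the highest or lowest sample was compared with its nearest neighbour by Dixon's ratio at the 95% level. Of 396 combinations of a named gene or marker list and a group, 42 had a sample that stood apart, and chance gives about 5%. Leukemia 7 held 14 of them and leukemia 2 held 5. Leukemia 2 lay above its group for Cd2 at 8.3, Tnfrsf1b at 9.03, Srebf2 at 10.51, the mean of NK cell markers at 6.77 and the mean of conventional dendritic cell markers at 7.94. Leukemia 3 lay above its group for Cdkn1b at 9.88, Eif2ak3 at 9.39 and Glul at 10.66. Leukemia 3 lay below its group for Myc at 9.07 and Srm at 9.22. Leukemia 4 lay below its group for Ccnd1 at 8.03. Leukemia 5 lay above its group for Dnajc7 at 10.02. Leukemia 7 lay above its group for Cpm at 9.12, Fcmr at 9.59, Tcf3 at 10.54, Ets1 at 10.6, Zbtb17 at 8.13, Gclc at 10.54, Hdac8 at 8.74, Rpl3l at 6.11 and Peg10 at 12.13. Leukemia 7 lay below its group for Rgs18 at 7.6, Etv6 at 9.73, Il18rap at 6.67, Ccnd2 at 7.61 and Grap2 at 8.57. Leukemia 9 lay below its group for the mean of endothelial markers at 6.57. Leukemia 10 lay above its group for Bcat1 at 7.13. Preleukemic sample 11 lay above its group for Cdh17 at 4.99. Preleukemic sample 12 lay above its group for Klrd1 at 7.59, the mean of NK cell markers at 6.92 and the mean of conventional dendritic cell markers at 6.52. Preleukemic sample 12 lay below its group for Spib at 12.38, Rasgrp1 at 10.25 and Cth at 5.12. Preleukemic sample 13 lay above its group for Vpreb3 at 13.23. Preleukemic sample 13 lay below its group for Asxl1 at 8.69 and H4c4 at 12.83. Preleukemic sample 21 lay above its group for Adcy6 at 6.9. Preleukemic sample 22 lay below its group for Ly6d at 10.56. Preleukemic sample 23 lay below its group for Gaa at 6.65. Preleukemic sample 24 lay above its group for Rgs18 at 7.13.

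The stage difference, leukemic minus preleukemic, differed between Pax5+/- and WT mice by the limma interaction term for genes named in the text. On the log2 scale, Pax5+/- minus WT, these were Tmc7 at 1.56, Edaradd at 1.92, Col5a3 at 0.88, Dock9 at 2.75, Pacs2 at 1.62, Slc1a5 at 1.9, Mtor at 0.53 and Bcat1 at 1.61. The number of genes called ran from 6 to 98 when 1 sample was left out.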

How the results depend on the processing

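Of 172 named genes that passed, 117 kept their call and direction under all 18 settings other than leaving out 1 sample, and 171 did so with any 1 sample left out (Rps15 was the exception). Genes lower numbered 3684 with a filter at the 50th percentile and 3544 with preleukemic samples 11 to 13 only. With the first component of marker genes as a covariate, 2120 were higher, 1424 lower and 676 higher over 2-fold, and with letter as a fixed term 2085 were higher and 1812 lower. The cause was not tested. By the median over members, marker lists differed by 0.321 for T cells, -0.653 for NK cells and 0.253 for conventional dendritic cells. Differences that changed sign were Rps15, at -0.014 with quantile normalization, and, with the marker covariate, Pik3cb at -0.459, Nup160 at 0.061, Col5a3 at 0.11 and Cdh17 at -0.738. Leaving out 1 sample gave 4171 to 4423 genes higher, 5320 to 5769 lower, 1027 to 1111 higher over 2-fold and 449 to 489 lower over 2-fold. It gave a Pax5 difference of -3.186 to -2.679 and 6 to 98 genes for the genotype comparison. Levels near the array medians have little signal over background, which limits what differences there can show. No paired analysis was possible because the groups share no replicate numbers.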
